A study of Mus musculus with 7 samples.

Results

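Kit, Aldh1a3, Cd14, Prom1, Ly6a and Ly6d are 6 genes whose products have been used to sort or name mouse mammary luminal cells. The set goes by the name luminal progenitor surface markers. They were taken by symbol from a count matrix of 27998 genes, each gene on a single row, and all 6 had counts. Their RNA was measured in single cells of abdominal mammary glands, with lymph nodes removed, from female mice that had borne no litters, on a background mixed from FVB, 129 and C57BL/6J, taken at diestrus. The young group held 3 mice aged 3 to 4 months (Young A, B and C) and the aged group held 4 mice aged 13 to 14 months (Aged A, B, C and D). No genetic change or treatment was named for either group, and cells of dissociated glands were loaded. Cells carried 13 deposited type names, of which 3 are luminal: hormone-sensing (HS), secretory alveolar (AV) and HS-AV, a small class that carries genes of both.

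The mammary duct is a bilayer of outer myoepithelial cells and inner luminal cells. Luminal cells include hormone-sensing cells, which carry the receptors for estrogen, progesterone and prolactin, and alveolar cells, which are primed for milk production. Kit is the receptor tyrosine kinase for stem cell factor, the product of Kitl. Aldh1a3 is an enzyme that makes retinoic acid inside the cell, so it is read by enzyme activity and not as a surface antigen. Cd14 is a lipid-anchored co-receptor that passes bacterial lipopolysaccharide to Tlr4 and Ly96. Prom1 encodes CD133, a glycoprotein of membrane protrusions. Ly6a encodes Sca-1, and Ly6a and Ly6d are small lipid-anchored proteins of the Ly6 family. In build GRCm38 (mm10), with RefSeq gene limits, Kit lies at chr5:75574987-75656722, Prom1 at chr5:43993621-44102047 and Aldh1a3 at chr7:66390892-66427477. Ly6d (chr15:74762056-74763567) and Ly6a (chr15:74994877-74998031) lie in the same tandem cluster of Ly6 genes. Ly6a has close relatives there, Ly6c1 among them, and reads that fit several copies could be split or lost, so its level is uncertain to that extent.

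The matrix held 13684 cells, 1264 to 2865 per mouse, with 6652599 to 16999625 UMIs (unique molecular identifiers, 1 per captured RNA molecule) per mouse and 2714 to 17158 UMIs per cell. Levels are counts summed over the cells of a type in a mouse and divided by all counts of that sum, as CPM (counts scaled to a fixed total), so a mouse, not a cell, is the replicate. The cell barcodes are written in another format in the young than in the aged libraries, and the deposited UMI totals differ from the matrix in 2263 aged and 0 young cells, by up to 22 UMIs. Age and library handling cannot be told apart. Of 13583 barcodes, 101 occur in more than 1 library and cover 202 cells. The AV cells made up 29.7% ± 9.94 of luminal cells in young mice (SD, n = 3) and 87.6% ± 3.15 in aged mice (SD, n = 4), and the HS cells 58.6% ± 3.83 and 12.1% ± 2.96. Only 16 of 273 HS-AV cells came from aged mice, and Ma macrophages reached 3 cells in young mice only. The types were clustered from these same cells and genes. Prom1 is among the genes by which the HS cells were named, and the authors described Kit, Aldh1a3 and Cd14 as progenitor markers of their AV cells. Differences between types are therefore given as descriptions without a test.

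The 6 genes did not mark a single luminal class. Kit, Aldh1a3 and Cd14 were highest among epithelial cells in AV cells, and Prom1, Ly6a and Ly6d in HS or HS-AV cells. Kit in AV cells stood at 56.6, 101 and 92.6 CPM in Young A, B and C and at 52.2, 62.3, 42.1 and 55.4 CPM in Aged A, B, C and D, a mean of 66.0 ± 21.9 CPM (SD, n = 7). Every AV value lay above every HS value (2.92 to 8.94 CPM) and every myoepithelial value (0 to 6.15 CPM). The next type, Ma macrophages, averaged 18.2 ± 11.7 CPM (n = 3) without reaching the AV range. That mean rested on 11 UMIs in 6 cells. Of all 122 cells of that cluster, 2 cells held at least 2 of the 4 mast cell markers Cpa3, Mcpt4, Tpsb2 and Fcer1a, and 1 of the 6 Kit-positive cells was among them. Single sums of few cells did reach the AV range, Mb macrophages of Aged B (66.8 CPM, 2 UMIs in 6 cells) and T and B cells of Young C (43.1 CPM) and Aged A (48.4 CPM). Below Ma macrophages the types overlapped from each to the next, and Kit was at 0 in the NK and lymphatic endothelial sums of mice with at least 3 such cells.

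Aldh1a3 was shared between AV cells and fibroblasts, the collagen-producing cells of the stroma. In AV cells it was 50.2, 167 and 313 CPM in the young and 94.6, 129, 81.8 and 46.6 CPM in the aged mice, so mice of both groups differed by several-fold. In fibroblasts it was 56.9, 74.9 and 110 CPM in the young and 32.8, 23.0, 76.0 and 165 CPM in the aged mice, and the 2 types overlapped. The means were 126 ± 92.7 and 76.9 ± 48.4 CPM (SD, n = 7 each). Fibroblasts of Aged B, C and D numbered 15 to 41 cells, and their values rest on 4 to 18 Aldh1a3 UMIs. Young C, the highest mouse in AV cells, also stood highest in HS-AV cells (144 CPM) and in myoepithelial cells (29.2 CPM, against 0 to 5.51 CPM in the other mice). HS cells averaged 4.23 ± 3.94 CPM.

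Cd14 had its highest mean in Mb macrophages, followed by AV cells. Mb macrophages averaged 2729 ± 1300 CPM (SD, n = 7), with no overlap with AV cells at 558 ± 177 CPM. In AV cells the young mice had 549, 703 and 625 CPM and the aged mice 838, 462, 357 and 373 CPM. Ma macrophages (412 ± 127 CPM, n = 3) and dendritic cells (250 ± 154 CPM, n = 5) overlapped with neighbours in that order. Within the epithelium the AV cells stood apart, since HS cells ranged from 19.0 to 48.8 CPM and myoepithelial cells from 13.0 to 64.3 CPM.

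Prom1 gave the reverse pattern within the luminal layer. It was 53.2, 60.5 and 54.1 CPM in HS cells of the young mice and 69.9, 114, 50.3 and 73.3 CPM in those of the aged mice. In AV cells it was 4.62, 3.597 and 9.92 CPM in the young and 0.658, 2.29, 0.955 and 1.13 CPM in the aged mice. HS-AV cells (58.1 ± 48.9 CPM, n = 6) overlapped with HS cells (68.0 ± 22.2 CPM, n = 7). Prom1 was at 0 in all dendritic and lymphatic endothelial sums.

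Ly6a was chiefly a stromal and vascular gene. Fibroblasts averaged 1546 ± 673 CPM, vascular endothelial cells 1069 ± 262 CPM, pericytes 881 ± 350 CPM and HS cells 691 ± 312 CPM (SD, n = 7 each), and each overlapped with the next. AV cells (42.3 ± 30.1 CPM) and myoepithelial cells (24.97 ± 14.2 CPM) were the lowest of the 13 types. In HS cells the mice ran from 118 CPM in Aged C to 949 CPM in Aged B.

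Ly6d had the highest mean of the 6 genes in HS and HS-AV cells, and in AV cells it lay below Cd14 in every mouse. HS cells held 3006, 7333 and 6085 CPM in the young and 1907, 6260, 451 and 4520 CPM in the aged mice, a mean of 4223 ± 2531 CPM (SD, n = 7). HS-AV cells (3580 ± 2755 CPM, n = 6) overlapped with them. AV cells averaged 266 ± 189 CPM, and T and B cells 450 ± 964 CPM, the latter with 4 to 19 cells per mouse. Aged C, with 93 HS cells, was the lowest mouse in HS cells for both Ly6 genes, and within the HS cells its Prom1 (50.3 CPM) was close to the young values.

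**Figure D1:**
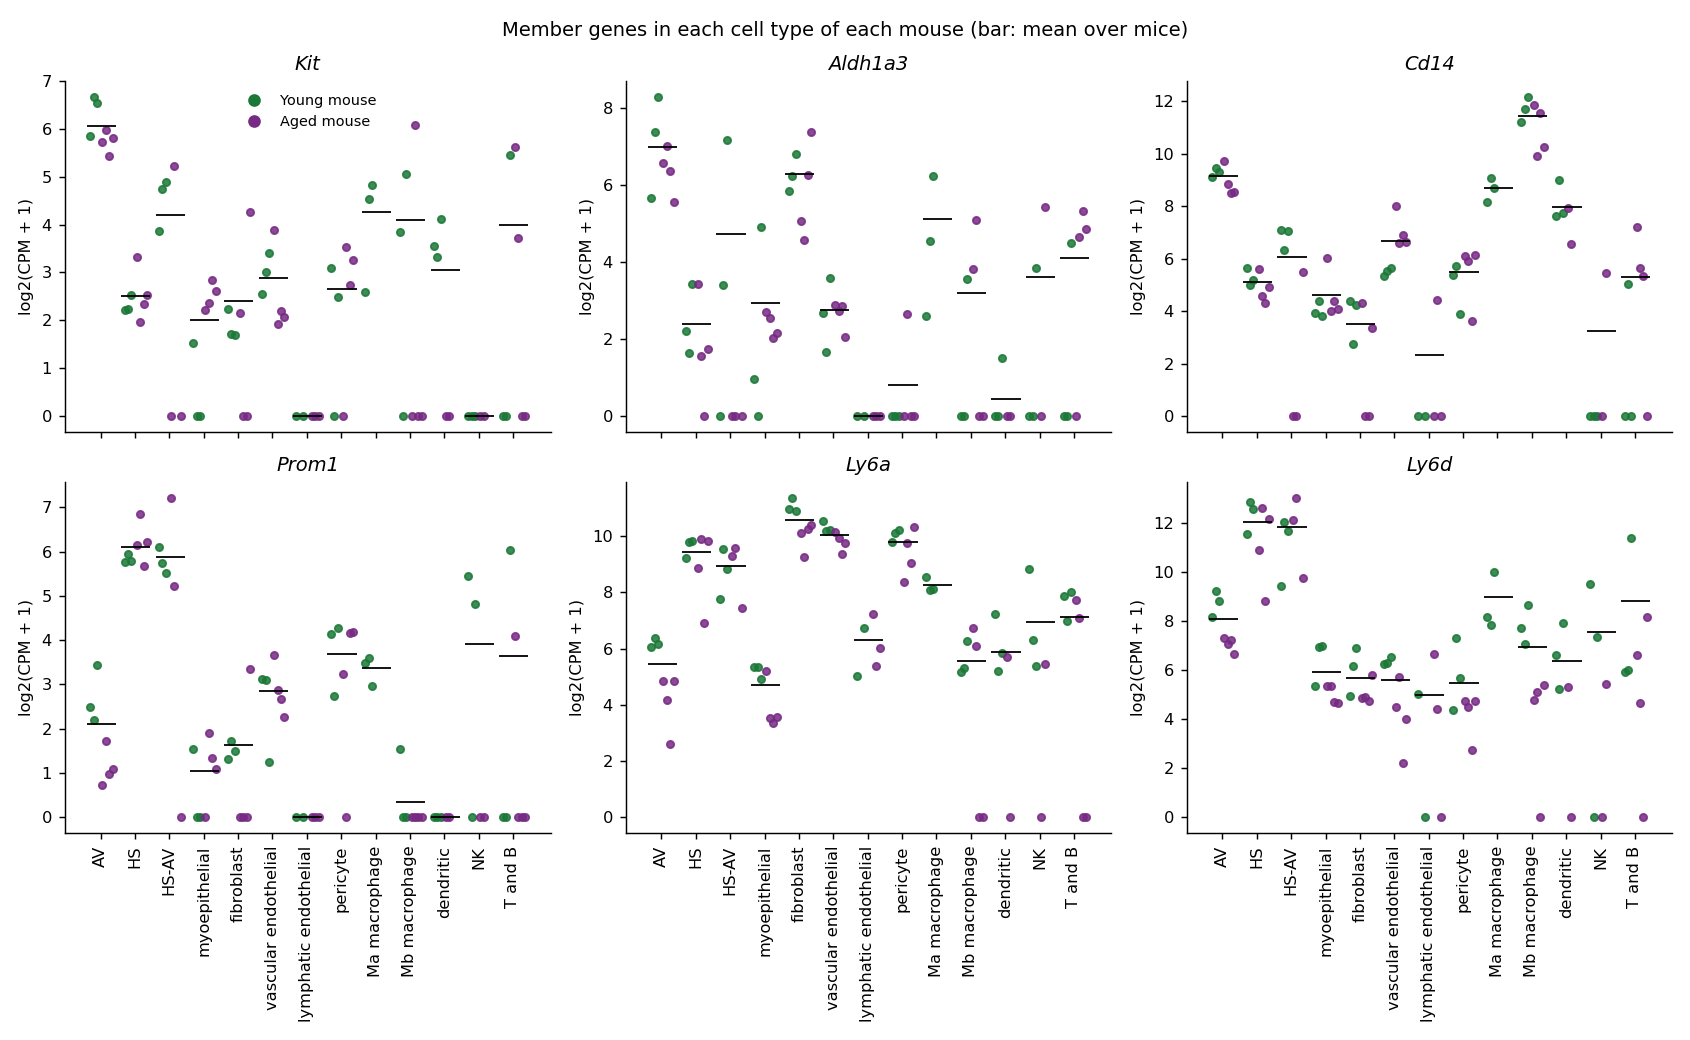
Level of each gene as log2(CPM + 1) in 13 cell types, 1 point per mouse with at least 3 cells of the type (green young, purple aged), and a bar at the mean CPM over mice on the same scale. Kit has its highest mean in AV cells, Aldh1a3 in AV cells and fibroblasts, Cd14 in Mb macrophages and then AV cells, Prom1 and Ly6d in HS and HS-AV cells, and Ly6a in stromal, vascular and HS cells.

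The same split was seen when cells were counted. With all UMIs, Kit was detected in 30.5% of AV cells (95% Wilson interval 29.2 to 31.8, median 6632 UMIs per cell) and in 1.86% of myoepithelial cells (median 4431 UMIs). Prom1 was detected in 32.5% of HS cells (30.5 to 34.5, median 7277 UMIs) and in 1.39% of AV cells. Aldh1a3 was found in 33.3% of AV cells and 24.3% of fibroblasts, and Cd14 in 79.5% of AV cells and 15.4% of HS cells. Ly6d was found in 93.7% of HS cells and 38.0% of AV cells, and Ly6a in 79.8% and 11.7%. Intervals cover counting error only. To compare cells at a single depth, each cell was thinned at random to 2000 UMIs, which left no cell out. Kit was then detected in 11.3% of AV cells and 0.719% of myoepithelial cells, so most of the AV cells that scored positive with all UMIs scored negative at this depth.

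Of luminal cells positive at that depth, pooled over mice, 94.8% of 574 Kit-positive, 92.7% of 809 Aldh1a3-positive and 93.9% of 2549 Cd14-positive cells were AV cells. HS cells made up 82.3% of 288 Prom1-positive, 77.1% of 1632 Ly6a-positive and 61.1% of 3095 Ly6d-positive cells. Per mouse, the AV share of Kit-positive cells averaged 85.1% in young and 98.1% in aged mice. It averaged 82.3% and 98.7% for Aldh1a3 and 73.8% and 98.9% for Cd14. AV cells were 29.7% and 87.6% of all luminal cells at these ages. The HS share of the Prom1-positive luminal cells was close at both ages, at a mean of 81.5% in young and 82.5% in aged mice. AV cells averaged 5.51% and 15.3% of that class, and HS-AV cells 13.0% and 2.17%. In the Ly6a-positive class HS cells averaged 79.4% and 62.1%, and AV cells 7.31% and 36.5%. The makeup of the Ly6d-positive class differed more. HS cells were on average 72.7% of the Ly6d-positive luminal cells of a young mouse and 34.2% of those of an aged mouse, and AV cells 14.1% and 64.8%.

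At 2000 UMIs per cell, all 3 AV genes were seldom detected in the same cell. Pairs of them were detected together about as often as independent detection would give. Of 4820 AV cells thinned to 2000 UMIs, 37.9% held none of Kit, Aldh1a3 and Cd14, 48.8% held 1, 12.3% held 2 and 1.04% held all 3. Kit and Aldh1a3 were found together in 105 AV cells, where 93.7 would be met if the genes were detected independently within each mouse, a ratio of 1.12 that was above 1 in 5 of 7 mice. Kit and Cd14 met in 247 cells against 272 (ratio 0.906, below 1 in 5 of 7 mice). Aldh1a3 and Ly6d met in 186 cells against 166 (ratio 1.12, from 1.07 to 1.37 and above 1 in 7 of 7 mice). In HS cells Prom1 and Ly6a met in 149 cells against 139 (ratio 1.07), and Ly6a and Ly6d in 1177 against 1153 (ratio 1.02). These ratios are close to 1 and are given as a description, since counts at 2000 UMIs per cell are sparse.

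The antigens CD133 and CD14 divide luminal cells in flow cytometry, and the same division was made here by RNA. A cell was called positive with at least 1 UMI after thinning. Of luminal cells, 5.82%, 8.86% and 6.59% were Prom1+ Cd14- in Young A, B and C, and 2.04%, 2.27%, 1.40% and 1.21% in Aged A, B, C and D. The groups did not overlap, and the means were 7.09% ± 1.58 (SD, n = 3) and 1.73% ± 0.507 (SD, n = 4). Prom1- Cd14+ cells were 21.9%, 16.4% and 19.99% in the young and 52.7%, 41.7%, 39.5% and 40.7% in the aged mice, with means of 19.4% ± 2.80 and 43.7% ± 6.11. Cells with both were 0.659% ± 0.109 and 0.164% ± 0.111, and cells with neither were 72.8% ± 1.12 and 54.4% ± 6.42. Each of the 4 classes separated the ages completely, with p = 0.0286 in a two-sided exact permutation test, the smallest that 3 against 4 mice allow, and 0.0286 after Benjamini-Hochberg adjustment over the 4 classes. With at least 2 UMIs asked of a gene none of the 4 differences passed (exact permutation p = 0.257 for Prom1+ Cd14-, 0.0571 for Prom1- Cd14+, 1 for both and 0.0571 for neither).

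The cells behind these classes were the named luminal types. Pooled over mice, HS cells formed 84.8% of the 263 Prom1+ Cd14- cells (95% Wilson interval 80.0 to 88.6). AV cells formed 94.5% of the 2524 Prom1- Cd14+ cells (93.5 to 95.3). Both intervals cover counting error only. Per mouse, the HS share of Prom1+ Cd14- cells averaged 83.1% in young and 87.4% in aged mice. The AV share of Prom1- Cd14+ cells averaged 75.7% in young and 99.1% in aged mice, and ranged from 67.1% to 99.5%. In young mice HS cells averaged 16.4% and HS-AV cells 7.85% of that class. The 25 cells with both were 14 HS, 9 AV and 2 HS-AV cells. Within the type that filled a class, the shares at both ages lay closer together, and they were not tested. Prom1+ Cd14- cells averaged 9.87% of HS cells in young and 12.5% in aged mice, and Prom1- Cd14+ cells averaged 51.0% of AV cells in young and 49.6% in aged mice. AV and HS shares of the luminal cells moved with the classes, as given above.

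**Figure D2:**
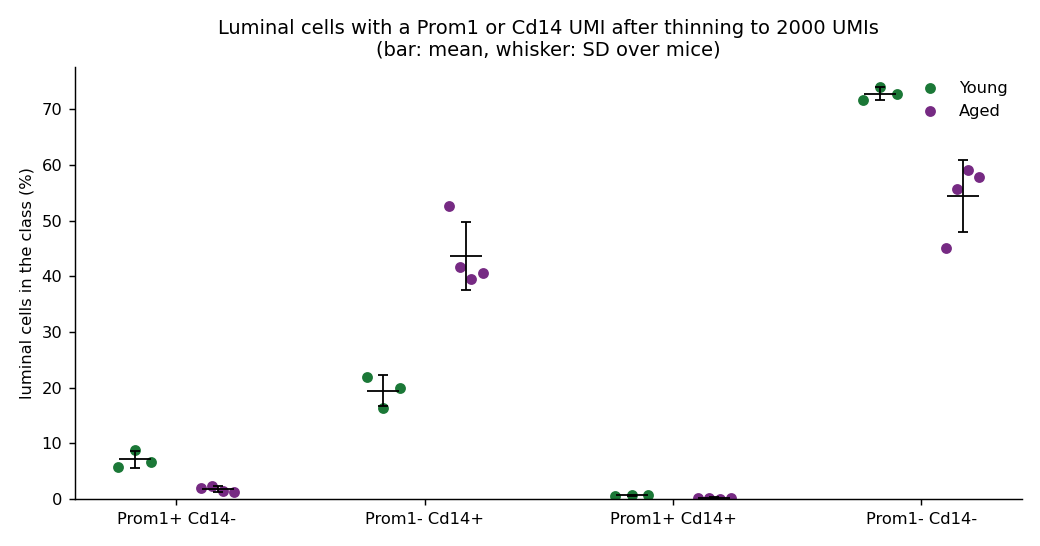
Share of luminal cells of a mouse in each of 4 classes set by a UMI of Prom1 and of Cd14 after thinning to 2000 UMIs per cell, in percent, 1 point per mouse (green young, purple aged), with bars at the mean and whiskers of 1 SD. In the aged mice 39.5% to 52.7% of luminal cells are Prom1- Cd14+, above the young range of 16.4% to 21.9%, and Prom1+ Cd14- cells lie below the young range.

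Whether the genes changed with age within a type was tested on the summed counts by the quasi-likelihood test of edgeR, with Benjamini-Hochberg adjustment over all genes tested in that type, and a call asks for an adjusted p under 0.05 and at least 1.5-fold. In AV cells 2 of the 6 genes were called, Prom1 and Ly6d, both lower in aged mice. Among all 11012 genes tested in AV cells 6.16% were called, 3.26% lower and 2.90% higher. Ly6d was 283, 597 and 446 CPM in the young and 157, 131, 147 and 99.7 CPM in the aged mice, so every aged mouse lay below every young one. It fell by 1.46 on the log2 scale (SE 0.262, adjusted p = 0.0112). Prom1 fell by 2.08 (SE 0.503, adjusted p = 0.0373), from 34 UMIs in the 3 young mice to 41 UMIs in the 4 aged mice, whose AV cells are more numerous. The fall of Prom1 thus lies at the low end of what these libraries measure. Ly6a also separated the ages, at 65.2, 82.7 and 70.7 CPM against 27.8, 17.0, 5.05 and 27.6 CPM, and missed the threshold (log2 change -1.63, SE 0.452, adjusted p = 0.0594). It passed with DESeq2 (adjusted p = 0.0101), without the filter on low counts (adjusted p = 0.0224) and without Aged C (adjusted p = 0.0339).

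The genes that mark AV cells were not called. Kit changed by -0.37 (SE 0.234, adjusted p = 0.380), Aldh1a3 by -0.77 (SE 0.493, adjusted p = 0.386) and Cd14 by -0.04 (SE 0.284, adjusted p = 0.958) on the log2 scale. For Kit and Aldh1a3 the lowest young mouse, Young A, lay among the aged mice. The Aldh1a3 change turned to 0.01 without Young C. The Prom1 call was lost when any single mouse other than Aged B was left out (adjusted p from 0.0553 to 0.285), and the Ly6d call without Young C (adjusted p = 0.0550). With the replicate letter as a block, Prom1 (adjusted p = 0.0848) and Ly6d (adjusted p = 0.0545) missed the threshold and Ly6a passed it (adjusted p = 0.0344).

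Some marker lists of other cell types were also lower in aged AV cells, and others were not. The 4 HS markers Prlr, Pgr, Esr1 and Cited1 summed to 188 to 273 CPM in young and 28.8 to 37.6 CPM in aged AV cells, with none at 0. The 4 fibroblast markers Col1a1, Col1a2, Col3a1 and Pdgfra summed to 27.0 to 167 and 2.18 to 5.26 CPM, and the 6 macrophage markers (Csf1r, Adgre1, C1qa, C1qb, Lyz2 and Cd74) to 115 to 171 and 13.0 to 65.0 CPM. In young mice the HS markers stood in AV cells at 8.87% to 11.02% of their level in HS cells of the same mouse, Ly6d at 7.33% to 9.41%, Ly6a at 7.73% to 10.8% and Prom1 at 5.95% to 18.3%. In aged mice the HS markers stood at 1.44% to 2.38% of their HS level and Prom1 at 0.941% to 2.00%. Ly6a stood at 1.80% to 5.98% and Ly6d at 2.09% to 32.5%. The 32.5% was Aged C, whose HS cells held the lowest Ly6d of the mice (451 CPM). Ly6d in Aged A, B and D stood at 8.25%, 2.09% and 2.21%. Ly6d per unit of HS marker CPM was 1.50 to 2.18 in young AV cells, beside 1.42 to 2.95 in young HS cells, and 3.46 to 4.57 in aged AV cells, beside 0.172 to 3.73 in aged HS cells. The 4 myoepithelial markers, at 44.2 to 151 CPM in young and 54.3 to 143 CPM in aged AV cells, and the 4 T and B cell markers, at 0 to 1.73 and 0.698 to 1.65 CPM, overlapped between ages. The part of these markers' cells in the values of Prom1, Ly6a and Ly6d was not tested.

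**Figure D3:**
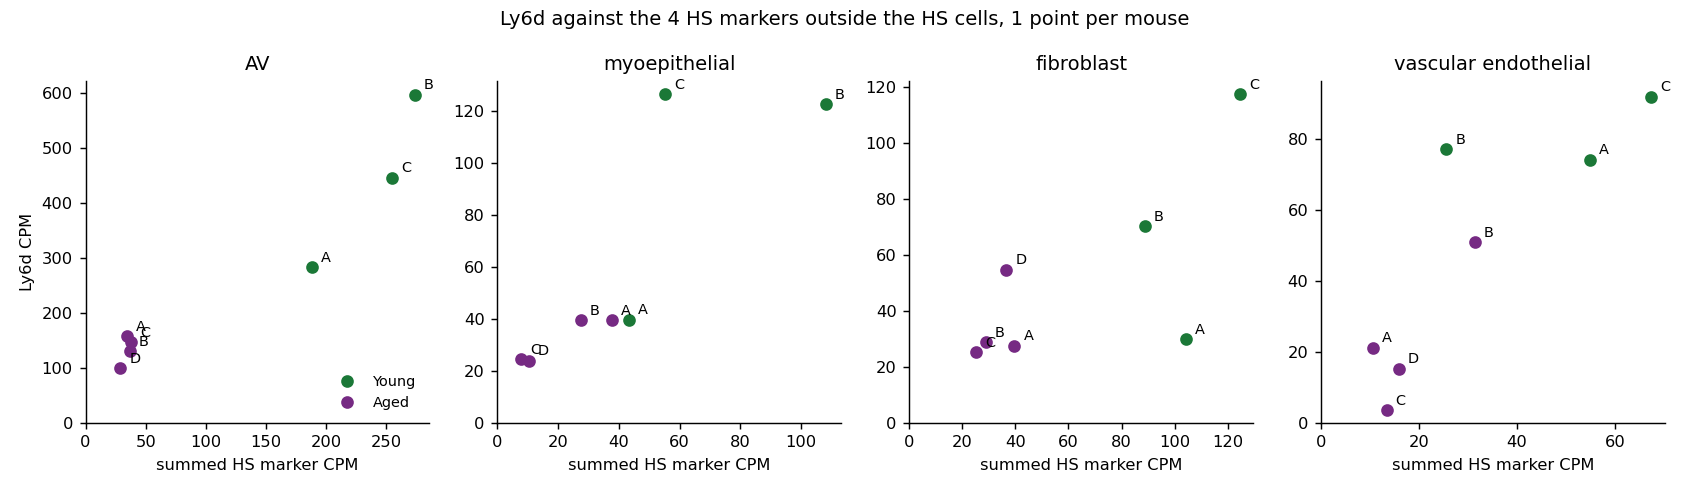
Ly6d (vertical, CPM) against the summed level of the HS markers Prlr, Pgr, Esr1 and Cited1 (horizontal, CPM) in 4 types other than HS, 1 point per mouse labelled by its letter (green young, purple aged). In AV cells the young mice sit at 188 to 273 CPM of HS markers and 283 to 597 CPM of Ly6d, and the aged mice at 28.8 to 37.6 and 99.7 to 157 CPM.

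Counting cells gave the same order. After thinning, Ly6d was detected in 38.3% ± 10.8 of young and 16.2% ± 2.31 of aged AV cells, Ly6a in 11.5% ± 2.62 and 3.34% ± 1.56, and Prom1 in 1.33% ± 0.572 and 0.296% ± 0.208 (SD over 3 and 4 mice). Without thinning the direction was the same for these 3. Each separated the ages (two-sided exact permutation p = 0.0286, the smallest that 3 against 4 mice allow). None passed after adjustment over the 18 tests of 6 genes in 3 epithelial types (adjusted p = 0.129, also by exact permutation). With only a few of the 18 tests at that smallest p, none could pass. The adjusted test therefore could not decide on these separations, which are given as descriptions. AV cells with a Ly6d UMI held 2.26 ± 0.323 of them in young and 1.78 ± 0.158 in aged mice, without overlap and not tested. Cd14 was detected in 51.4% ± 4.08 and 49.7% ± 8.48 of AV cells.

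In HS cells none of the 4 genes tested was called by edgeR, against 6.26% of all 8457 genes (2.33% lower, 3.93% higher). At an unadjusted p under 0.05 there was 1 gene, Prom1, and DESeq2 called 0. Prom1 changed by 0.63 (SE 0.261, adjusted p = 0.172) and Ly6d by -0.58 (SE 0.665, adjusted p = 0.649). The spread of Ly6d among aged mice, from 451 to 6260 CPM, was wider than the difference between the ages. Ly6a behaved likewise (log2 change -0.24, SE 0.531), and its sign turned without Aged C (0.11). Kit and Aldh1a3 were too low in HS cells to be tested.

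The age effect on Prom1 differed between the luminal types. In a fit with each mouse as a block, the log2 change in AV cells minus that in HS cells was -2.76 for Prom1 (SE 0.408, adjusted p = 6.98e-04), and it was the only one of 6 genes past the adjusted threshold, against 2.41% of all 9838 genes. It missed the threshold without Young C (adjusted p = 0.0925). AV cells held only 2 to 24 Prom1 UMIs per mouse, so this difference lies at the low end of what these libraries measure. HS markers moved in AV cells as given above. For Ly6a the difference was -1.28 (SE 0.366, adjusted p = 0.0744), for Kit -0.70 (SE 0.412, adjusted p = 0.469) and for Ly6d -0.39 (SE 0.671, adjusted p = 0.853). Between AV and myoepithelial cells edgeR and DESeq2 called 0 of 5 genes, against 9.25% of all 9434 genes, with 2 at an unadjusted p under 0.05, Kit and Cd14.

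**Figure D4:**
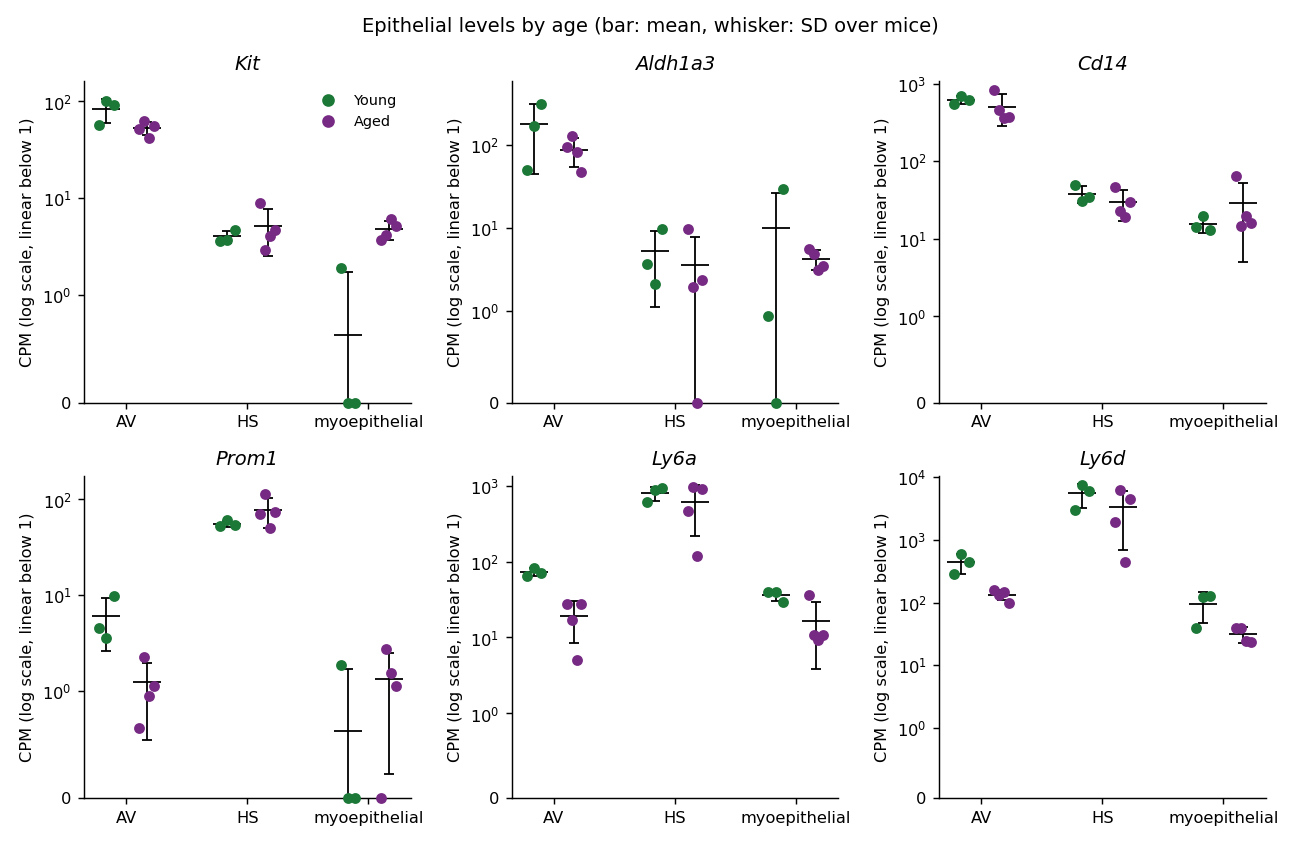
Level of each gene in AV, HS and myoepithelial cells (CPM, log axis that is linear below 1), 1 point per mouse (green young, purple aged), with bars at the mean and whiskers of 1 SD cut off at 0. Ly6a, Ly6d and Prom1 of aged AV cells lie below all young AV values, and in HS cells the ages overlap for all 6 genes.

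In myoepithelial cells 1 of 3 genes tested was called, against 27.6% of all 6740 genes (14.8% lower, 12.8% higher). Ly6d was 39.7, 123 and 127 CPM in the young and 39.5, 39.6, 24.6 and 24.0 CPM in the aged mice, and it fell by 1.27 (SE 0.346, adjusted p = 0.0119). Young A was level with Aged A and B. The call was lost without Young B (adjusted p = 0.0586) or Young C (adjusted p = 0.120). The HS markers summed to 43.4 to 108 CPM in young and 7.69 to 37.7 CPM in aged myoepithelial cells, and their part was not tested. Ly6a missed the threshold (log2 change -1.11, SE 0.411, adjusted p = 0.0539), with Aged A at 35.8 CPM among the young mice (29.2 to 39.7 CPM) and the other aged mice at 9.23 to 10.8 CPM. Without Aged A it passed (log2 change -1.66, adjusted p = 0.00129).

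Outside the epithelium the clearest change was in Cd14 of vascular endothelial cells, which line the blood vessels. It was 39.4, 44.6 and 49.5 CPM in the young and 257, 96.4, 119 and 97.1 CPM in the aged mice, with no overlap, and it rose by 2.03 on the log2 scale (SE 0.333, adjusted p = 5.16e-04). The call held under all 15 alternatives (log2 change from 1.60 to 2.22, adjusted p at most 0.00470). The macrophage markers Csf1r, Adgre1, C1qa, C1qb and Lyz2 were at most 12.7 CPM each in any aged vascular endothelial sum, and Csf1r averaged 1.31 CPM in young and 0.223 CPM in aged mice. Cd74, which is not limited to macrophages, averaged 416 and 3241 CPM. Without the cells that held a UMI of those 5 markers, Cd14 was 38.1, 43.0 and 45.5 CPM in the young and 250, 96.4, 119 and 97.5 CPM in the aged mice, and the log2 change was 2.09 (adjusted p = 3.43e-04). This alternative was chosen after the data were seen. When cells with a Cd74 UMI were left out too, Cd14 was 24.3, 22.5 and 58.8 CPM in the young mice and 0, 93.3, 58.8 and 14.3 CPM in Aged A, B, C and D, and the ages overlapped. Only 3 cells remained in Aged A and 12 in Aged D, and those 2 mice lay below every young mouse. Cd74 moved with Cd14, and its part in the result was not tested.

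Ly6d was the second of the 5 genes called in vascular endothelial cells, where 26.7% of all 7864 genes were called (12.0% lower, 14.7% higher). It fell by 1.44 (SE 0.435, adjusted p = 0.0234), from 74.3, 77.3 and 92.1 CPM to 21.2, 51.0, 3.57 and 15.2 CPM. HS markers summed to 25.6 to 67.3 CPM in young and 10.6 to 31.4 CPM in aged vascular endothelial cells, and their part was not tested. DESeq2 did not call it (adjusted p = 0.149), nor did edgeR without doublets (adjusted p = 0.0912) or without Young B, Young C or Aged D (adjusted p from 0.0517 to 0.0767). Ly6a, at 1167 to 1484 CPM in the young and 667 to 1142 CPM in the aged mice, did not overlap between ages yet changed by only -0.13 (SE 0.173, adjusted p = 0.608) once the sums were scaled by TMM.

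In fibroblasts edgeR called 0 of 4 genes, against 3.17% of all 5513 genes, with 1 at an unadjusted p under 0.05. That gene was Ly6a, at 2018, 2619 and 1909 CPM in the young and 1103, 616, 1216 and 1344 CPM in the aged mice (log2 change -0.94, SE 0.258, adjusted p = 0.0677), and DESeq2 called it (adjusted p = 0.0472). In pericytes, the contractile cells around small vessels, 0 of 2 genes tested were called by edgeR or DESeq2, against 11.8% of all 2601 genes, with 0 at an unadjusted p under 0.05. In Mb macrophages, with 3 to 9 cells per aged mouse, Cd14 was the only gene of the 6 tested and was called by neither tool (log2 change -0.36, SE 0.429, edgeR adjusted p = 0.690, unadjusted p = 0.419), against 1.16% of all 859 genes.

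**Figure D5:**
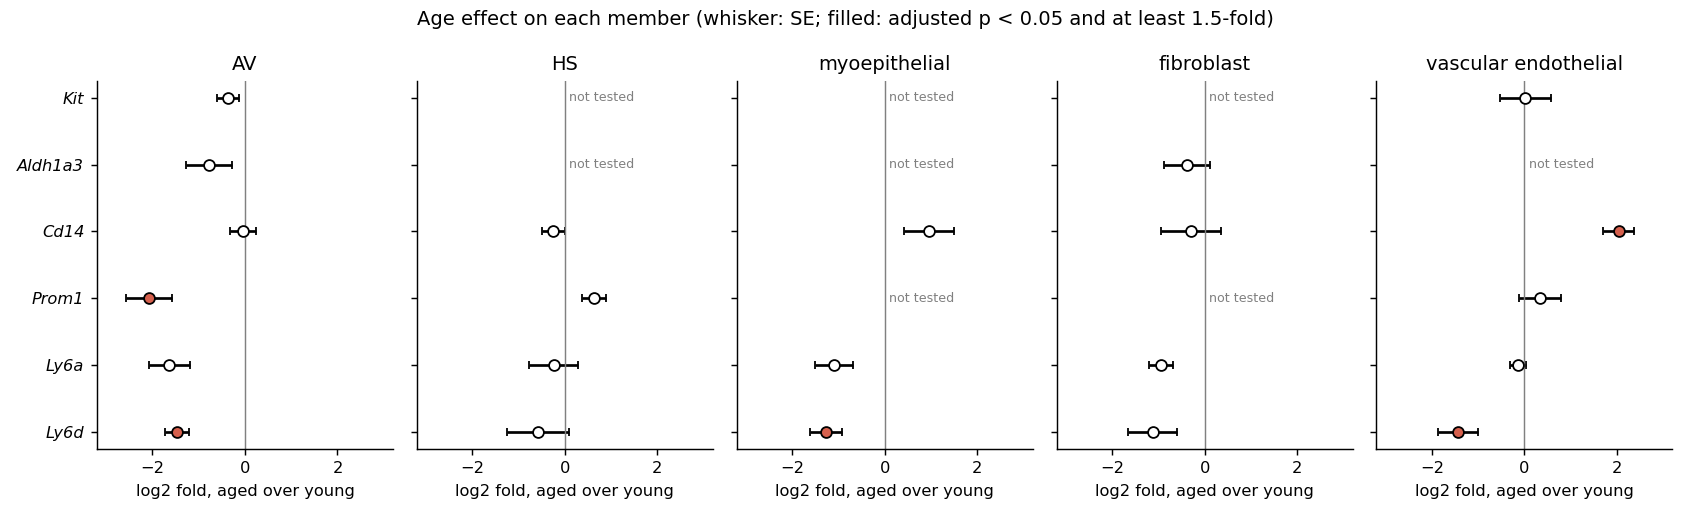
Log2 fold change of aged over young mice from edgeR (horizontal) for the 6 genes in 5 cell types, with whiskers of 1 SE and filled points for adjusted p under 0.05 and at least 1.5-fold. Prom1 and Ly6d are filled below 0 in AV cells, Ly6d in myoepithelial and vascular endothelial cells, and Cd14 is filled above 0 (2.03) in vascular endothelial cells.

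Ligands and partners of the 6 genes were read from lists. Kitl was highest of the 5 largest types in vascular endothelial cells (165 ± 15.3 CPM, SD, n = 7) and averaged 98.5 ± 37.8 CPM in myoepithelial cells and 36.6 ± 9.56 CPM in AV cells, the cells with Kit. Of the 8 genes of Kit ligand and CD14 signalling, 6 were tested in AV cells and 3 were called, all higher in aged mice, with a median log2 change of 1.23 beside 0.02 over all genes. They were Tlr4 (1.84, SE 0.314, adjusted p = 0.00865), Lbp, which loads lipopolysaccharide onto Cd14 (1.51, SE 0.335, adjusted p = 0.0269), and Kitl (0.95, SE 0.214, adjusted p = 0.0291). Tlr4 was low, at a mean of 3.21 CPM in young and 9.47 CPM in aged AV cells. In HS cells 1 of 3 was called, Kitl, from 14.6 to 74.1 CPM (log2 change 2.42, SE 0.268, adjusted p = 0.00136). In myoepithelial cells 1 of 4 was called, Tlr2, a receptor for bacterial lipoproteins (log2 change 3.67, SE 0.357, adjusted p = 4.18e-06). Ly96, the partner of Tlr4, averaged 12.9 ± 4.27 CPM in AV cells. In vascular endothelial cells 2 of 5 were called and in fibroblasts 1 of 5, all higher in aged mice. Among all genes tested, 2.90% were called higher in AV, 3.93% in HS, 12.8% in myoepithelial and 14.7% in vascular endothelial cells. In fibroblasts 3.17% of all genes were called in either direction.

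Of 15 genes of retinoid metabolism, 7 were tested in AV cells and 1 was called, Dhrs3, a retinal reductase that turns the substrate of Aldh1a3 back to retinol (log2 change 1.63, SE 0.337, adjusted p = 0.0205). Dhrs3 was also the 1 of 7 called in HS cells (0.73, SE 0.179, adjusted p = 0.0386). In myoepithelial cells Rdh11 rose (1.42, SE 0.368, adjusted p = 0.00872). The retinal dehydrogenases Aldh1a1 and Aldh1a2 were low in AV cells. Aldh1a1 averaged 93.7 ± 50.6 CPM in fibroblasts and 0.644 ± 1.26 CPM in AV cells, and Aldh1a2 averaged 0.246 and 0.163 CPM. In fibroblasts 0 of 6 were called by edgeR. Among all genes tested, 6.16% were called in AV, 6.26% in HS and 27.6% in myoepithelial cells, and 3.17% in fibroblasts. Rdh10, which supplies retinal, averaged 28.3 CPM in HS and 16.9 CPM in AV cells.

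Of 22 genes of the Ly6 family, with Prom2, 11 were tested in AV cells, 1 was called higher and 2 lower. Among all genes tested, 6.16% were called in AV, 6.26% in HS, 27.6% in myoepithelial and 26.7% in vascular endothelial cells, and 3.17% in fibroblasts. Cd59a, a complement inhibitor, rose by 2.41 (SE 0.241, adjusted p = 6.84e-04). Ly6c1 fell by 2.95 (SE 0.356, adjusted p = 0.00164) and Gpihbp1, a lipoprotein lipase anchor of capillaries, fell by 4.17 (SE 0.500, adjusted p = 0.00162). Gpihbp1 averaged 2594 CPM in young and 226 CPM in aged vascular endothelial cells and 24.2 and 1.08 CPM in AV cells, and Ly6c1 averaged 2343 and 1269 CPM in vascular endothelial and 40.1 and 4.14 CPM in AV cells. The 4 vascular endothelial markers summed to 20.2 to 47.9 CPM in young and 10.6 to 14.0 CPM in aged AV cells, and their part was not tested. In HS cells Cd59a rose (2.47, adjusted p = 0.00395) and Gpihbp1 fell by 3.68 (adjusted p = 0.0138) among 12 tested. In myoepithelial cells Lypd3 rose (1.80, adjusted p = 9.47e-04) and Ly6c1 and Gpihbp1 fell by 1.55 and 3.51 (adjusted p = 0.0263 and 0.00109) among 7 tested, by edgeR. The same vascular endothelial markers summed to 37.4 to 53.6 and 26.0 to 43.9 CPM in young and aged HS cells and to 19.5 to 54.1 and 9.70 to 46.2 CPM in young and aged myoepithelial cells. In vascular endothelial cells 1 of 6 was called, Gpihbp1, lower, and in fibroblasts the same gene alone of 6. Ly6e was the most abundant relative, at 2665 ± 507 CPM in HS and 1424 ± 349 CPM in AV cells. Prom2, the relative of Prom1, averaged 61.9 ± 20.4 CPM in HS and 6.68 ± 5.50 CPM in AV cells (SD, n = 7).

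The other antigens used to sort mammary cells were called about as often as all genes in AV and HS cells (6.16% and 6.26%). Of 16, 14 were tested in AV cells and 1 was called, Icam1, an adhesion molecule (log2 change 2.75, SE 0.603, adjusted p = 0.0259), and 10 were tested in HS cells and 1 was called, Cd55, a complement inhibitor (1.43, SE 0.380, adjusted p = 0.0487). In myoepithelial cells, where 12.8% of all genes were called higher, 5 of 11 were called, all higher in aged mice. The 4 with the largest change were, by edgeR, Procr (2.94, SE 0.487), Epcam (2.13, SE 0.212), Cd44 (2.04, SE 0.220) and Icam1 (0.76, SE 0.204). Itga2 and Itgb3, integrins by which luminal progenitors are also sorted, averaged 3.08 and 2.30 CPM in AV cells, and Cd24a averaged 1612 CPM in HS and 544 CPM in AV cells. In vascular endothelial cells, where 14.7% of all genes were called higher and 12.0% lower, 4 of 7 were called higher and 1 lower, and in fibroblasts 0 of 11 were called.

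The genes were compared within AV cells by the deposited phase of each cell. That call put 233 of 288 AV cells of Young A in S or G2M phase, and more AV cells in S or G2M than in G1 phase in every mouse, so it is not read here as a split into cycling and resting cells. By edgeR 0 of 5 genes tested differed between cells in S or G2M phase and cells in G1 phase, with 0 at an unadjusted p under 0.05 and 0 by DESeq2, against 0.400% of all 8990 genes. Kit changed by -0.07 (SE 0.0748) and Aldh1a3 by 0.05 (SE 0.0749) on the log2 scale, with each mouse as a block. The largest change of the 5 was in Ly6d, at -0.10 (SE 0.0678). Prom1 was too low in AV cells to be tested here.

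Genes with the most similar pattern were found over 80 sums of a mouse and type, among 7421 genes with a mean of at least 10 CPM, by Pearson correlation of log2(CPM + 1). These are descriptions, since the sums share libraries. For Kit they were Elf5, a transcription factor of alveolar cells (r = 0.663), Wfdc3 (0.621) and Atp6v1b1 (0.610). Aldh1a3 was nearest to C4b (0.621), Kcnk5 (0.612) and Lurap1l (0.607), and Cd14 to Cd68 (0.791), Tnf (0.757) and Tspan33 (0.749). Prom1 was nearest to Gipc2 (0.807), Cdo1 (0.783) and Slc7a2 (0.765), Ly6a to Itih5 (0.729), Sep15 (0.691) and Iigp1 (0.685), and Ly6d to Prlr, the prolactin receptor (0.870), Aqp5 (0.860) and Cxcl15 (0.855). The values for Aldh1a3 were the lowest of the 6 genes.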

How the data were processed

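Per the labels, 10x Chromium 3′ v2 libraries, 1 per mouse, were made from whole glands; the authors mapped reads to mm10 with Cell Ranger 2.0, removed cells by UMI, gene and mitochondrial limits, and deposited a matrix of unnormalised UMI counts. The deposited cell list gave type names, phases (other labels in words), barcodes and the mitochondrial fraction of each cell, which the authors computed. Here counts were summed per mouse and type (at least 3 cells), divided to CPM, and tested with edgeR 4.0.16 (filterByExpr, TMM, quasi-likelihood; SE taken from the F statistic), with DESeq2 1.42.0 as an alternative. No further filter on cells was set. Scrublet in scanpy 1.11.5 marked 101 cells (0.738%), which were kept. Thinning used 2000 UMIs. Single values were compared by exact permutation over mice.

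Depth was 6652599 to 16999625 UMIs per mouse; a low-count gene is measured less exactly, as its UMI numbers show. Nothing says whether mice of a group shared a litter. Members, lists and tests were chosen with earlier results of these data known. Named list genes are those called with age in AV, HS or myoepithelial cells, at most 4 per list and type by fold, plus direct partners; per gene the 3 most alike are named. The fits were tested on simulated data. Sequences were not used here. A result of the retinoid list is not reported here.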

Additional observations from a re-analysis of the deposited data

Results flagged for a closer look

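Among 41 groups of 4 aged mice (a gene in a type), 8 held a mouse whose gap to the next mouse exceeded Dixon's 95% limit, a share of the range. For continuous values that limit would be exceeded in about 1 in 20. It does not hold for sparse counts with ties at 0, and the groups share the same 4 mice. The 8 of 41 are therefore not read against that rate. Aged A stood highest in 4 of them: Cd14 in vascular endothelial cells (257 CPM), Cd14 in myoepithelial cells (64.3 CPM), Ly6a in myoepithelial cells (35.8 CPM) and Kit in vascular endothelial cells (13.8 CPM, 13 UMIs). Aged D stood highest for Ly6d (54.9 CPM, 6 UMIs) and Prom1 (9.14 CPM, 1 UMI) in its 17 fibroblasts. Aged B stood highest for Kit in Mb macrophages (66.8 CPM, 2 UMIs) and Aldh1a3 in pericytes (5.30 CPM, 1 UMI). The last 4 rest on 1 to 6 UMIs. For Prom1 in fibroblasts, Kit in Mb macrophages and Aldh1a3 in pericytes the other aged mice were at 0. There 1 or 2 UMIs were enough to pass the limit.

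The age effect on Prom1 differed between AV and HS cells by a test of the difference itself (log2 difference -2.76). The difference missed the threshold without Young C, and AV cells held 34 Prom1 UMIs in the young and 41 in the aged mice. Prom1 was lower in every aged than in every young mouse in AV cells, and in HS cells Aged C alone lay below the young range.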

How the results depend on the processing

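Log2 changes kept their direction and their side of the threshold in 225 of 244 comparisons with another setting and in 236 of 276 with a mouse left out; the cause of those that did not was not tested. DESeq2 turned the Aldh1a3 difference in age effect between AV and HS cells (0.14) and between AV and myoepithelial cells (-0.12), called 1 of the 6 genes in fibroblasts and 1 in vascular endothelial cells, and called 45 of all genes in Mb macrophages. Without the low-count filter 1215 genes were called in HS cells, 582 in fibroblasts, 560 in pericytes and 71 in Mb macrophages, and of the 6 genes 3 in myoepithelial cells, 2 in fibroblasts, 1 in pericytes, 1 in Mb macrophages and 2 for AV minus HS. Without doublets 2 of the 6 were called in myoepithelial and 1 in vascular endothelial cells. Asking every pair of mice for the same direction with a minimum fold left 0 of the 6 and 1198 of all genes in myoepithelial cells and 1 of the 6 in vascular endothelial cells. Thinning turned the phase changes of Cd14 (-0.017) and Ly6a (-0.13). Without thinning the aged minus young share turned for Cd14 in AV (2.48 percentage points) and HS cells (2.41) and Aldh1a3 in myoepithelial cells (0.249). With at least 2 UMIs the class differences were -0.44 points for Prom1+ Cd14-, 11.7 for Prom1- Cd14+, 0 for both and -11.2 for neither, and none reached the threshold (smallest exact permutation p = 0.0571).

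The replicate letters name different animals. Deviations of same-letter mice correlated at a median of -0.03, over 0.1 in 1 of 21 pairs, so the letters were not taken as a pairing. With the letter as a replicate block 1 of the 6 genes was called in AV and 1 in vascular endothelial cells, and 424 of all genes were called in AV cells, 165 in HS cells, 30 in fibroblasts, 184 in pericytes and 35 in Mb macrophages.

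With each mouse left out in turn, 201 to 619 genes were called in AV cells, 134 to 554 in HS cells, 977 to 1829 in myoepithelial cells, 68 to 150 in fibroblasts, 128 to 347 in pericytes and 2 to 9 in Mb macrophages. Of the 6 genes, 0 to 2 were called in AV cells (0 without Young C), 0 to 2 in myoepithelial cells, 0 to 1 in fibroblasts, 1 to 2 in vascular endothelial cells and 0 to 2 for AV minus HS. The class differences ranged from -5.99 to -4.47, 21.2 to 25.6, -0.548 to -0.439 and -19.9 to -15.3 points in the order above, in designs too small to pass 0.05. Log2 changes that turned ranged from -1.23 to 0.014 (Aldh1a3) and -0.41 to 0.064 (Cd14) in AV cells, -0.58 to 0.11 (Ly6a) in HS cells, -1.07 to 0.084 (Aldh1a3) and -0.24 to 0.039 (Cd14) in fibroblasts, and -0.26 to 0.20 (Kit) and -0.26 to 7.74e-04 (Ly6a) in vascular endothelial cells. For AV minus HS they ranged from -0.65 to 0.99 (Aldh1a3), -0.0024 to 0.41 (Cd14) and -1.17 to 0.27 (Ly6d), for AV minus myoepithelial from -1.94 to 0.51 (Aldh1a3), and for phase from -0.019 to 0.15 (Aldh1a3), -0.035 to 0.049 (Cd14) and -0.074 to 0.19 (Ly6a). Shares that turned ranged from -5.82 to 0.431 points (Cd14 in AV), -0.730 to 0.194 (Aldh1a3 in HS), -0.473 to 0.453 (Aldh1a3 in myoepithelial) and -0.482 to 2.02 (Cd14 in myoepithelial). A minimum of 10 cells per mouse left no aged mouse for Mb macrophages and was not run there.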

Other observations

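The share of a gene's RNA that came from a type differed between the ages for some genes and types and was close for others. AV cells were 12.5% of all cells in the young and 55.1% in the aged libraries, HS cells 24.7% and 7.75%, and fibroblasts 28.2% and 2.65%. Vascular endothelial cells were 14.6% and 12.1%, and Mb macrophages 1.95% and 0.301%. AV cells held 67.5% of all Kit UMIs in the young libraries and 94.4% in the aged ones, and 48.1% and 95.6% of Aldh1a3 UMIs, where fibroblasts held 39.2% and 1.63%. For Cd14, AV cells held 46.0% and 90.9% and Mb macrophages 30.6% and 2.59% of UMIs. HS cells held 76.4% and 81.2% of Prom1 UMIs and 86.8% and 80.4% of Ly6d UMIs. Fibroblasts held 49.1% of Ly6a UMIs in the young libraries and 9.77% in the aged ones, and vascular endothelial cells 17.4% and 45.3%. These are shares over pooled libraries, with no test.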
